A study of Mus musculus with 21 samples.

Results

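The matrix metalloproteinases (MMPs), the ADAMTS proteases and their inhibitors, the TIMPs, were followed as 1 family of 40 genes in mouse osteoblasts exposed to parathyroid hormone (PTH) analogs. The genes were taken by name, with earlier results of these data known. Of the 40, 38 had a transcript cluster annotated with a single gene symbol, out of 22180 genes so measured. Of the 38, 28 had a mean signal above the median gene, so the shares of all genes given below are not matched for signal. Mmp15 and Adamts2 were not analysed here. A gene with more than 1 such cluster was represented by its brightest.

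Primary osteoblasts came from the calvaria (skull bones) of C57BL/6J mice aged 7 to 10 days, were grown to passage 2, differentiated, and deprived of serum for 24 h before treatment. Every group was then exposed for 4 h in serum-free medium with 0.5% albumin, and each of the 7 groups held 3 independently prepared cultures, 1 array each. The analogs at 100 nM were human hPTH(1-34), human hPTH(1-31), PTH(1-36), bovine bPTH(3-34) and human hPTH(7-34). The bovine analog with substitutions at residues 12 and 34, (D-Trp12,Tyr34)-PTH(7-34) amide, here bPTH(7-34), was used at 1000 nM, and vehicle was the common control. In bulk RNA of such primary cultures a smaller number of cells of a type and less RNA per cell cannot be told apart.

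MMPs are zinc proteases that cut collagens, gelatin, proteoglycans and other proteins of the extracellular matrix, and most are secreted as inactive proenzymes. ADAMTS proteases are secreted relatives with thrombospondin repeats. Some of them cut the large proteoglycans aggrecan and versican, and others remove the amino-terminal propeptide of procollagen. TIMPs bind the active site of these enzymes and block it. In bone, osteoblasts make collagenases and gelatinases that clear matrix ahead of osteoclasts, and PTH acts on osteoblasts through a receptor, Pth1r, that raises cyclic AMP. The analogs that begin at the first residue of the hormone (hPTH(1-34), hPTH(1-31) and PTH(1-36)) are called intact below, and the 3 that lack the first residues are called truncated, since the amino terminus is the part known to activate that receptor.

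The intact analogs changed 12 of the 38 measured genes (called with at least 1 of them), beside 11.7% of all genes, and the truncated analogs changed 0, beside 0.0721% of all genes. With all 3 intact analogs 7 members were called, beside 5.28% of all genes. Adamts4, Adamts9, Adamts3 and Timp1 rose with every intact analog, and Adamts5, Adamts6 and Mmp11 fell with every intact analog. Mmp28 rose with hPTH(1-34) and hPTH(1-31), Adamts16 rose with hPTH(1-31) and PTH(1-36), Mmp9 rose with hPTH(1-31), and Adamts19 rose and Timp3 fell with hPTH(1-34). A gene counted as changed at an adjusted p under 0.05 in 1 limma fit of all 7 groups, with Benjamini-Hochberg adjustment over all genes of a contrast.

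Against vehicle, hPTH(1-34) gave 6 higher and 4 lower members (10 of 38, or 26.3%), beside 8.64% of all genes called (3.90% higher, 4.74% lower). hPTH(1-31) gave 7 higher and 3 lower members (26.3%), beside 8.70% of all genes (4.38% higher, 4.32% lower). PTH(1-36) gave 5 higher and 3 lower (21.1%), beside 7.23% of all genes (3.68% higher, 3.54% lower). The median difference over the 38 members was -0.04, 0.02 and -0.05 on the log2 scale with the 3 intact analogs in that order, and over all genes it was -0.01, -0.02 and -0.02. The 3 arrays of the analog did not overlap those of vehicle in 17, 14 and 13 members with hPTH(1-34), hPTH(1-31) and PTH(1-36), beside 23.4%, 22.1% and 20.5% of all genes. When each analog was fitted with vehicle alone, 5 members were called with each of the 3, and without PTH(1-36) replicate 3 only 5 were called with that analog. All 6 contrasts used the same 3 vehicle arrays, so they are not independent of each other.

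With bPTH(3-34) and bPTH(7-34), 0 of the 38 members and 0% of all genes were called by limma. With hPTH(7-34), 0 members and 0.0721% of all genes were called. At an unadjusted p under 0.05 there were 5 members with bPTH(3-34), 2 with hPTH(7-34) and 2 with bPTH(7-34), beside 5.92%, 8.19% and 5.19% of all genes. Over the 12 genes that changed with an intact analog, the differences from vehicle lay between -0.33 (Mmp28) and 0.40 (Adamts3) with bPTH(3-34), between -0.12 (Adamts9) and 0.24 (Adamts6) with hPTH(7-34), and between -0.17 (Mmp28) and 0.32 (Adamts3) with bPTH(7-34). Their 95% intervals reached from -0.56 to 0.66, from -0.37 to 0.56 and from -0.44 to 0.58. Arrays not overlapping those of vehicle were seen in 6, 4 and 4 members with bPTH(3-34), hPTH(7-34) and bPTH(7-34), beside 10.1%, 12.3% and 8.48% of all genes.

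**Figure D1:**
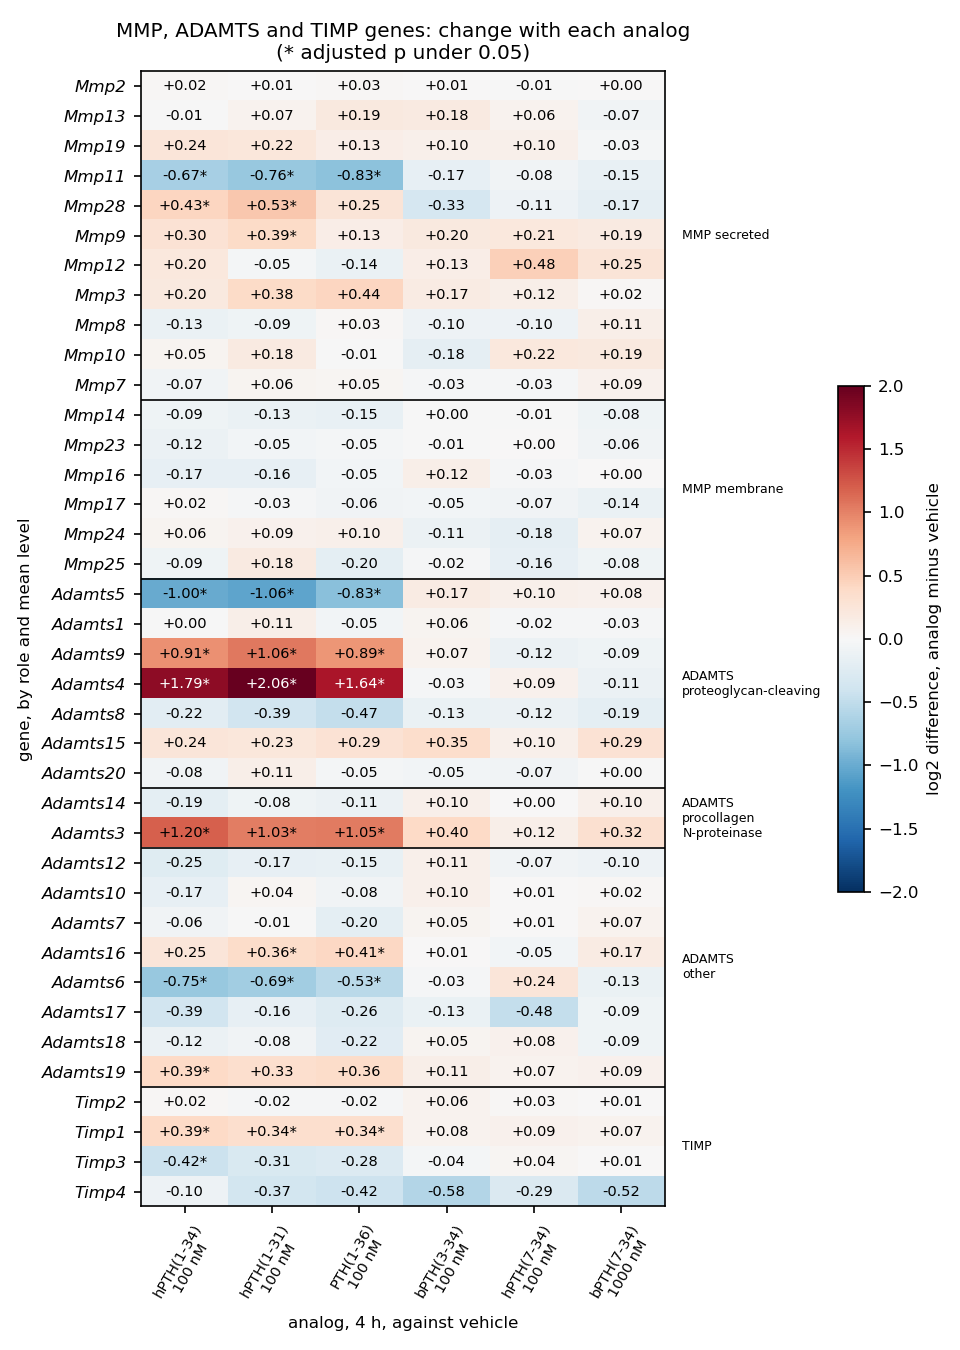
Log2 difference from vehicle of the 38 measured genes (down the page, by role and then mean signal) with each of the 6 analogs (across), the value printed and coloured in each cell and a star marking an adjusted p under 0.05. Adamts4, Adamts9 and Adamts3 are red and starred and Adamts5 and Mmp11 blue and starred with the 3 intact analogs, and no cell of a truncated analog has a star.

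The ADAMTS proteases that cut aggrecan and versican (7 measured) moved in both directions. With each intact analog 2 rose (Adamts4 and Adamts9), 1 fell (Adamts5), and 4 (Adamts1, Adamts8, Adamts15 and Adamts20) were not called. Of all genes, 3.68% to 4.38% were called higher and 3.54% to 4.74% lower with a single intact analog. Adamts4 and Adamts5, known as aggrecanase-1 and aggrecanase-2, are the main aggrecan-cutting enzymes of cartilage.

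Adamts4 read 8.52, 8.36 and 8.39 with hPTH(1-34), 8.83, 8.64 and 8.60 with hPTH(1-31), and 8.40, 8.24 and 8.17 with PTH(1-36). Its signals were 6.62, 6.69 and 6.50 with bPTH(3-34), 6.62, 6.82 and 6.71 with hPTH(7-34), 6.25, 6.69 and 6.61 with bPTH(7-34), and 6.71, 6.76 and 6.42 with vehicle. The 9 arrays with an intact analog lay above all the others, and the fitted difference was 1.79 ± 0.12, or 3.47-fold, with hPTH(1-34) (limma, adjusted p = 7.80e-09). The differences with hPTH(1-31) and PTH(1-36) were 2.06 ± 0.12, or 4.17-fold, and 1.64 ± 0.12, or 3.12-fold. Signals are log2 and differences are log2 ± SE from the fit throughout. With bPTH(3-34), hPTH(7-34) and bPTH(7-34) the differences of Adamts4 were -0.03, 0.09 and -0.11.

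Adamts5 read 8.74, 8.56 and 8.81 with hPTH(1-34), 8.66, 8.57 and 8.71 with hPTH(1-31), and 8.79, 8.88 and 8.95 with PTH(1-36). Its signals were 9.86, 9.90 and 9.86 with bPTH(3-34), 9.82, 9.81 and 9.78 with hPTH(7-34), 9.79, 9.77 and 9.80 with bPTH(7-34), and 9.65, 9.72 and 9.75 with vehicle. The 9 intact-analog arrays lay below all the others. Adamts5 fell by 1.00 ± 0.08 with hPTH(1-34) (2.00-fold lower, limma, adjusted p = 3.98e-08), by 1.06 ± 0.08 with hPTH(1-31) and by 0.83 ± 0.08 with PTH(1-36). The call for Adamts4, Adamts5, Adamts9, Adamts3 and Mmp11 against vehicle with each intact analog was lost under none of the alternatives run, which included leaving out any 1 array.

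Adamts9 is a widely expressed versican- and aggrecan-cutting protease. It read 8.55, 8.46 and 8.70 with hPTH(1-34), 8.68, 8.59 and 8.90 with hPTH(1-31), and 8.53, 8.37 and 8.75 with PTH(1-36). Its signals were 7.72, 7.72 and 7.75 with bPTH(3-34), 7.61, 7.46 and 7.56 with hPTH(7-34), 7.60, 7.37 and 7.75 with bPTH(7-34), and 7.62, 7.56 and 7.81 with vehicle. The 9 intact-analog arrays again lay above all the others, and the differences were 0.91 ± 0.12, 1.06 ± 0.12 and 0.89 ± 0.12 with hPTH(1-34), hPTH(1-31) and PTH(1-36) (limma, adjusted p = 2.97e-05, 4.33e-06 and 4.57e-05).

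Among the 4 proteoglycan-cutting members that were not called, Adamts1, another versican-cutting enzyme, differed from vehicle by 0.00, 0.11 and -0.05 with the 3 intact analogs. Adamts8 differed by -0.22, -0.39 and -0.47, and Adamts15 by 0.24, 0.23 and 0.29. In the RefSeq gene order Adamts1 and Adamts5 are neighbours on chromosome 16, so the gene that fell adjoins one that was not called. Adamts15 and Adamts8 are neighbours on chromosome 9, and neither was called.

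Adamts3 removes the amino-terminal propeptide of procollagen, chiefly of type II in cell-free assays, and also processes the lymphatic growth factor VEGF-C. It read 6.44, 6.17 and 6.41 with hPTH(1-34), 6.06, 6.23 and 6.21 with hPTH(1-31), and 6.21, 6.09 and 6.26 with PTH(1-36). Its signals were 5.35, 5.48 and 5.79 with bPTH(3-34), 5.37, 5.34 and 5.06 with hPTH(7-34), 5.27, 5.51 and 5.60 with bPTH(7-34), and 5.22, 4.99 and 5.21 with vehicle. The intact-analog arrays lay above every other array, and the differences from vehicle were 1.20 ± 0.13, 1.03 ± 0.13 and 1.05 ± 0.13 (limma, adjusted p = 2.44e-06, 1.52e-05 and 1.52e-05). With bPTH(3-34) the arrays of Adamts3 also lay above those of vehicle, by 0.40, but limma's adjusted p was 0.699. Adamts14, the other procollagen N-proteinase measured, differed from vehicle by -0.19, -0.08 and -0.11 with the intact analogs and was not called.

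Of the 8 remaining ADAMTS genes, Adamts6 fell, and Adamts16 and Adamts19 each rose with some intact analogs. The share of all genes called with at least 1 intact analog was 11.7%. Adamts6 read 4.65, 4.89 and 5.17 with hPTH(1-34), 5.16, 5.05 and 4.68 with hPTH(1-31), and 5.05, 5.21 and 5.11 with PTH(1-36). Its signals were 5.62, 5.75 and 5.52 with bPTH(3-34), 5.96, 5.98 and 5.75 with hPTH(7-34), 5.45, 5.64 and 5.50 with bPTH(7-34), and 5.86, 5.77 and 5.34 with vehicle. It differed from vehicle by -0.75 ± 0.15, -0.69 ± 0.15 and -0.53 ± 0.15 (limma, adjusted p = 0.00263, 0.00511 and 0.0364), and the lowest truncated-analog and vehicle arrays were above the highest intact-analog array. The PTH(1-36) call of Adamts6 was lost when any of the 3 PTH(1-36) arrays, or vehicle replicate 1 or 2, was left out, with an adjusted p of up to 0.158. Its hPTH(1-34) and hPTH(1-31) calls were lost in fits of 2 groups (limma, adjusted p = 0.0709 and 0.0884).

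Adamts16 read 5.68, 5.60 and 5.83 with hPTH(1-34), 5.92, 5.79 and 5.74 with hPTH(1-31), and 5.76, 5.87 and 5.98 with PTH(1-36). Its signals were 5.53, 5.31 and 5.55 with bPTH(3-34), 5.42, 5.45 and 5.35 with hPTH(7-34), 5.55, 5.57 and 5.76 with bPTH(7-34), and 5.39, 5.48 and 5.50 with vehicle. The differences from vehicle were 0.25 ± 0.09, 0.36 ± 0.09 and 0.41 ± 0.09 (limma, adjusted p = 0.132, 0.0198 and 0.00874), and the hPTH(1-34) difference did not pass the threshold. The hPTH(1-31) call was lost without replicate 1 of vehicle or of hPTH(1-31) (adjusted p up to 0.115), and the PTH(1-36) call without PTH(1-36) replicate 3 (0.112). Both calls were also lost in fits of 2 groups. All 9 intact-analog arrays of Adamts16 were above the 3 vehicle arrays, but 1 of the 3 bPTH(7-34) arrays (5.76) lay among the intact-analog arrays.

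Adamts19 had the lowest mean signal of the members. It read 2.99, 2.74 and 2.86 with hPTH(1-34), 3.07, 2.67 and 2.67 with hPTH(1-31), and 2.70, 2.92 and 2.87 with PTH(1-36). Its signals were 2.50, 2.62 and 2.63 with bPTH(3-34), 2.63, 2.48 and 2.50 with hPTH(7-34), 2.42, 2.62 and 2.63 with bPTH(7-34), and 2.64, 2.45 and 2.32 with vehicle. The differences from vehicle were 0.39 ± 0.12, 0.33 ± 0.12 and 0.36 ± 0.12 (limma, adjusted p = 0.0421, 0.0933 and 0.0723), all 9 intact-analog arrays being above the 3 vehicle arrays. The hPTH(1-34) call of Adamts19 was lost in 9 of the alternatives, including the omission of vehicle replicate 2 or 3 or of hPTH(1-34) replicate 1 or 3 (adjusted p up to 0.168). The other 5 (Adamts7 and Adamts12, which cut the cartilage protein Comp, Adamts10 and Adamts17, linked in humans to Weill-Marchesani syndrome, and Adamts18) were not called with any analog.

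**Figure D2:**
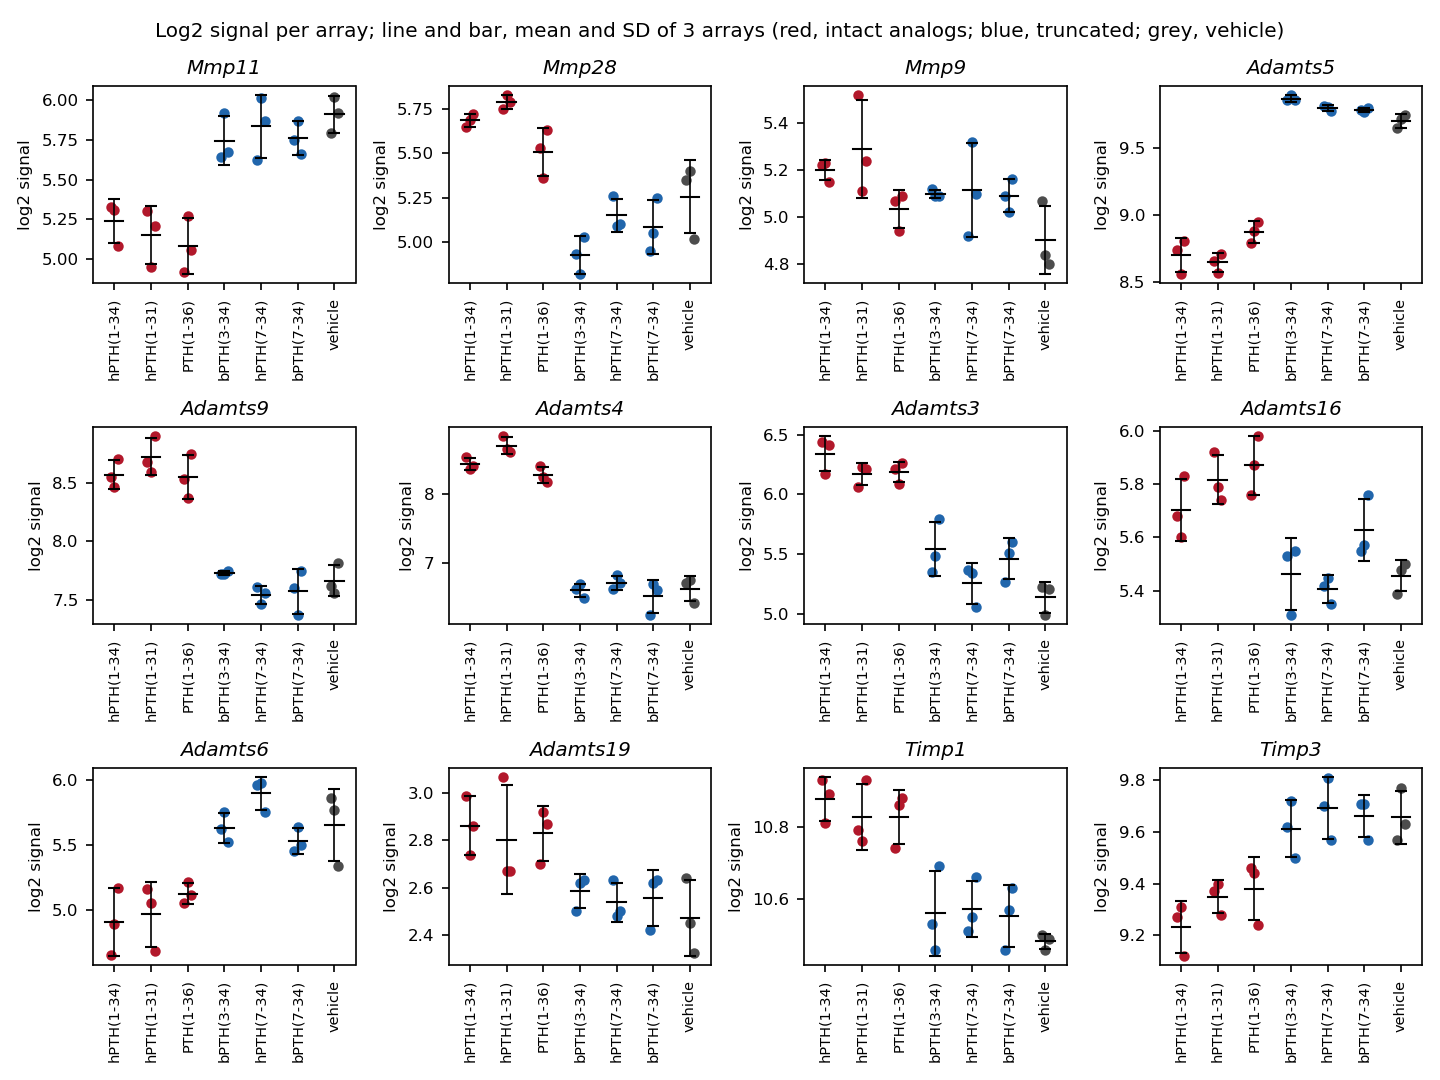
Log2 signal (vertical axis, a scale of its own in each panel) of the 12 genes called against vehicle, 1 point per array, for the 3 intact analogs (red), the 3 truncated analogs (blue) and vehicle (grey), with the mean as a line and the SD of 3 arrays as a bar. For Adamts4, Adamts9 and Adamts3 the red points lie above all others, and for Adamts5 and Mmp11 below all others.

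Of 11 secreted MMPs measured, 3 (Mmp11, Mmp28 and Mmp9) were called with at least 1 intact analog, beside 11.7% of all genes. Mmp11 (stromelysin-3), which is activated inside the cell by furin, fell with all 3 intact analogs. Mmp11 read 5.33, 5.31 and 5.08 with hPTH(1-34), 5.30, 4.95 and 5.21 with hPTH(1-31), and 4.92, 5.27 and 5.06 with PTH(1-36). Its signals were 5.64, 5.92 and 5.67 with bPTH(3-34), 5.62, 6.01 and 5.87 with hPTH(7-34), 5.75, 5.87 and 5.66 with bPTH(7-34), and 5.79, 6.02 and 5.92 with vehicle. The differences were -0.67 ± 0.13, -0.76 ± 0.13 and -0.83 ± 0.13 (limma, adjusted p = 0.0017, 0.000522 and 0.000261), and the 9 intact-analog arrays were below all the rest. The gene has a second, dimmer cluster on the array, which differed from vehicle by -0.16, -0.03 and 0.04 with the 3 intact analogs and was not called when every single-symbol cluster was fitted (adjusted p from 0.808 to 0.975). The 2 clusters of Mmp11 therefore disagree.

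Mmp28 (epilysin), a secreted MMP best known from skin and testis, rose with hPTH(1-34) and hPTH(1-31). It read 5.65, 5.69 and 5.72 with hPTH(1-34), 5.75, 5.83 and 5.79 with hPTH(1-31), and 5.53, 5.36 and 5.63 with PTH(1-36). Its signals were 4.93, 4.82 and 5.03 with bPTH(3-34), 5.26, 5.09 and 5.10 with hPTH(7-34), 4.95, 5.05 and 5.25 with bPTH(7-34), and 5.35, 5.40 and 5.02 with vehicle. Its differences from vehicle were 0.43 ± 0.11, 0.53 ± 0.11 and 0.25 ± 0.11 (limma, adjusted p = 0.0148, 0.00277 and 0.202). The hPTH(1-34) call was lost without replicate 3 of vehicle or of hPTH(1-34) (adjusted p up to 0.118), and the PTH(1-36) arrays of Mmp28 overlapped those of vehicle. Both calls of Mmp28 were also lost in fits of 2 groups.

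Mmp9, gelatinase B, read 5.22, 5.23 and 5.15 with hPTH(1-34), 5.52, 5.11 and 5.24 with hPTH(1-31), and 5.07, 4.94 and 5.09 with PTH(1-36). Its signals were 5.12, 5.09 and 5.09 with bPTH(3-34), 4.92, 5.32 and 5.10 with hPTH(7-34), 5.09, 5.02 and 5.16 with bPTH(7-34), and 5.07, 4.84 and 4.80 with vehicle. The difference from vehicle was 0.39 ± 0.11 with hPTH(1-31) (limma, adjusted p = 0.036), against 0.30 with hPTH(1-34) and 0.13 with PTH(1-36), neither of which was called. The hPTH(1-31) call of Mmp9 was lost in 7 of the alternatives, with the adjusted p reaching 0.213. These included leaving out replicate 1 or 3 of hPTH(1-31) or replicate 2 or 3 of vehicle.

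Mmp13 (collagenase-3), long studied as a PTH-responsive gene of osteoblasts in rat cells, was not called with any analog at 4 h. It read 10.86, 10.79 and 10.90 with hPTH(1-34), 11.02, 10.79 and 10.99 with hPTH(1-31), and 10.95, 11.11 and 11.11 with PTH(1-36). Its signals were 11.05, 10.98 and 11.11 with bPTH(3-34), 10.94, 10.76 and 11.08 with hPTH(7-34), 10.76, 10.66 and 10.95 with bPTH(7-34), and 10.91, 10.72 and 10.96 with vehicle. The arrays of every analog overlapped those of vehicle except bPTH(3-34), which lay above them by 0.18 (limma, adjusted p = 0.875). The differences were -0.01 ± 0.10, 0.07 ± 0.10 and 0.19 ± 0.10 with the intact analogs. Their 95% intervals reached from -0.23 at the lowest to 0.41 at the highest.

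Mmp12 (macrophage elastase) was called between analogs but not against vehicle. It read 4.74, 4.81 and 4.74 with hPTH(1-34), 4.31, 4.48 and 4.75 with hPTH(1-31), and 4.49, 4.60 and 4.17 with PTH(1-36). Its signals were 4.70, 4.70 and 4.68 with bPTH(3-34), 4.94, 5.29 and 4.89 with hPTH(7-34), 4.98, 4.52 and 4.93 with bPTH(7-34), and 4.42, 4.55 and 4.71 with vehicle. Against vehicle hPTH(7-34) differed by 0.48 ± 0.14 (limma, adjusted p = 0.383), with 3 arrays above all vehicle arrays. Directly compared, hPTH(7-34) was higher than PTH(1-36) by 0.62 ± 0.14 (limma, adjusted p = 0.015) and than hPTH(1-31) by 0.53 ± 0.14 (0.0433), and the call against hPTH(1-31) was lost in 8 of the alternatives. The mean log2 signal of 16 macrophage and osteoclast markers was 7.76 to 7.88 per array with hPTH(7-34), against 7.52 to 7.76 with PTH(1-36) and 7.67 to 7.73 with hPTH(1-31), and its part in the Mmp12 result was not tested.

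The gelatinase Mmp2 and the membrane-bound Mmp14 (MT1-MMP, which activates pro-Mmp2 together with Timp2) carried strong signals and were not called with any analog. Mmp2 read 12.10, 12.06 and 12.10 with hPTH(1-34), 12.11, 12.04 and 12.07 with hPTH(1-31), and 12.08, 12.07 and 12.13 with PTH(1-36). Its signals were 12.09, 12.06 and 12.07 with bPTH(3-34), 12.04, 12.02 and 12.11 with hPTH(7-34), 12.10, 12.03 and 12.07 with bPTH(7-34), and 12.10, 12.02 and 12.08 with vehicle. All 21 arrays of Mmp2 lay between 12.02 and 12.13. Mmp14 read 11.66, 11.63 and 11.62 with hPTH(1-34), 11.57, 11.66 and 11.58 with hPTH(1-31), and 11.64, 11.65 and 11.46 with PTH(1-36). Its signals were 11.74, 11.74 and 11.70 with bPTH(3-34), 11.71, 11.74 and 11.72 with hPTH(7-34), 11.69, 11.63 and 11.63 with bPTH(7-34), and 11.80, 11.74 and 11.65 with vehicle. With hPTH(1-34), hPTH(1-31) and PTH(1-36) the differences from vehicle were 0.02, 0.01 and 0.03 for Mmp2, and -0.09, -0.13 and -0.15 for Mmp14. Membrane and membrane-type MMPs (6 measured of 7, namely Mmp14, Mmp16, Mmp17, Mmp23, Mmp24 and Mmp25) gave 0 calls with any analog, with differences from -0.20 (Mmp25) to 0.18 (Mmp25) for the intact ones.

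Mmp23, a membrane-anchored MMP without the hemopexin domain, read 9.28, 9.15 and 9.20 with hPTH(1-34), 9.34, 9.22 and 9.27 with hPTH(1-31), and 9.36, 9.24 and 9.24 with PTH(1-36). Its signals were 9.25, 9.41 and 9.30 with bPTH(3-34), 9.29, 9.40 and 9.29 with hPTH(7-34), 9.37, 9.22 and 9.20 with bPTH(7-34), and 9.25, 9.39 and 9.34 with vehicle. Its differences from vehicle were -0.12, -0.05 and -0.05 with the intact analogs. The remaining secreted members, the stromelysins Mmp3 and Mmp10, matrilysin Mmp7, neutrophil collagenase Mmp8 and Mmp19, were not called with any analog. In the RefSeq order Mmp13, Mmp12, Mmp1b, Mmp3, Mmp1a, Mmp10, Mmp8, Mmp27, Mmp20 and Mmp7 form a run of 10 genes on chromosome 9, and none of the 6 that are members was called against vehicle.

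Of the 4 TIMPs, Timp1 rose, Timp3 fell, and Timp2 and Timp4 were not called. The share of all genes called with at least 1 intact analog was 11.7%. Timp1, a secreted inhibitor of most soluble MMPs, rose with all 3 intact analogs. It read 10.93, 10.81 and 10.89 with hPTH(1-34), 10.79, 10.76 and 10.93 with hPTH(1-31), and 10.74, 10.86 and 10.88 with PTH(1-36). Its signals were 10.53, 10.46 and 10.69 with bPTH(3-34), 10.51, 10.55 and 10.66 with hPTH(7-34), 10.46, 10.57 and 10.63 with bPTH(7-34), and 10.50, 10.46 and 10.49 with vehicle. Its differences were 0.39 ± 0.08, 0.34 ± 0.08 and 0.34 ± 0.08 (limma, adjusted p = 0.00407, 0.0116 and 0.0135), and all 9 intact-analog arrays were above every other array. The hPTH(1-31) call of Timp1 was lost without hPTH(1-31) replicate 3, and the PTH(1-36) call without vehicle replicate 2 or PTH(1-36) replicate 3 (adjusted p up to 0.158). All 3 calls of Timp1 were lost in fits of 2 groups.

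Timp3, which stays bound to the matrix and also inhibits Adamts4 and Adamts5, fell with hPTH(1-34). It read 9.27, 9.31 and 9.12 with hPTH(1-34), 9.37, 9.40 and 9.28 with hPTH(1-31), and 9.46, 9.44 and 9.24 with PTH(1-36). Its signals were 9.62, 9.72 and 9.50 with bPTH(3-34), 9.70, 9.81 and 9.57 with hPTH(7-34), 9.71, 9.71 and 9.57 with bPTH(7-34), and 9.57, 9.77 and 9.63 with vehicle. The differences were -0.42 ± 0.09, -0.31 ± 0.09 and -0.28 ± 0.09 (limma, adjusted p = 0.00639, 0.0507 and 0.0902), and the 9 intact-analog arrays lay below all others. Timp3 was also called with hPTH(1-31) and PTH(1-36) under 4 of the 14 alternatives, among them quantile normalization, omission of dim genes and a mean trend. Its hPTH(1-34) call was lost in the fit of 2 groups (limma, adjusted p = 0.0776).

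Timp2, the TIMP that pairs with Mmp14, read 11.96, 11.95 and 11.95 with hPTH(1-34), 11.90, 11.95 and 11.90 with hPTH(1-31), and 11.96, 11.91 and 11.87 with PTH(1-36). Its signals were 11.97, 12.10 and 11.93 with bPTH(3-34), 11.95, 12.00 and 11.95 with hPTH(7-34), 11.92, 11.95 and 11.96 with bPTH(7-34), and 11.94, 12.01 and 11.86 with vehicle. The groups overlapped, and it was not called with any analog. Nor was Timp4, which differed from vehicle by -0.10, -0.37 and -0.42 with the intact analogs, at a vehicle mean of 3.54.

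**Figure D3:**
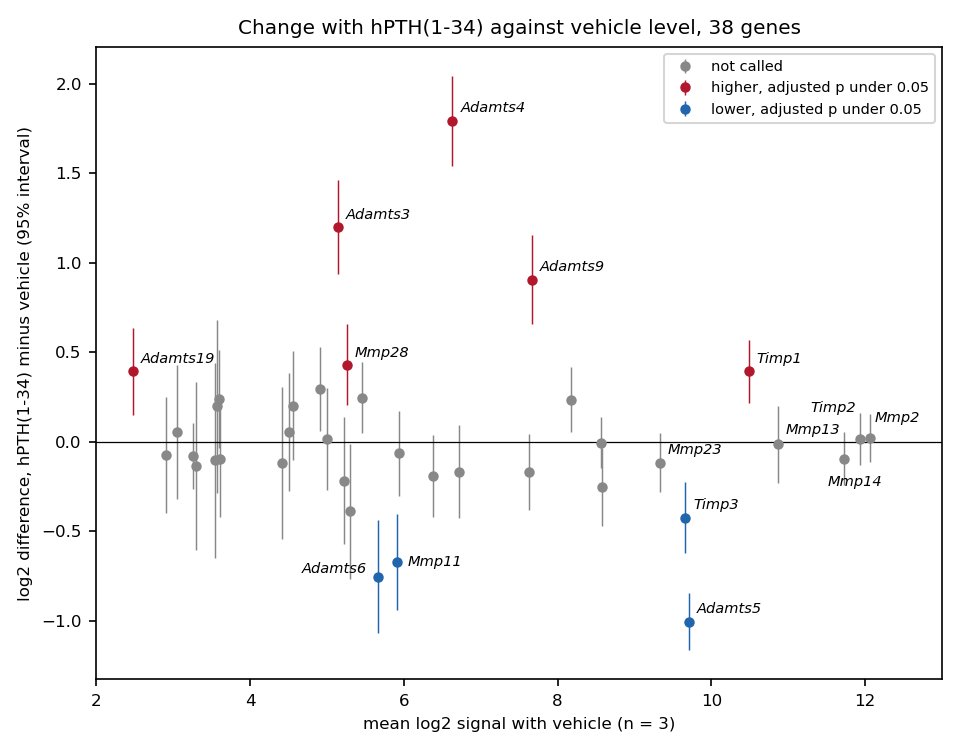
Log2 difference of hPTH(1-34) from vehicle (vertical axis, with 95% intervals) against the mean log2 signal with vehicle (horizontal axis) for the 38 members, red where higher and blue where lower at an adjusted p under 0.05. Adamts4, Adamts3, Adamts9 and Adamts5 stand apart from the line at zero, while Mmp2, Timp2, Mmp14 and Mmp13 lie close to it at the right, and a signal is not a measure of one gene against another.

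Of the 26 members not called with any analog against vehicle, 8 had a vehicle mean above 8, namely Mmp2, Timp2, Mmp14, Mmp13, Mmp23, Adamts1, Adamts12 and Mmp19. For these 8 the differences lay between -0.25 and 0.24 with the intact analogs, and their 95% intervals between -0.47 and 0.42. Over all 26 the differences lay between -0.47 and 0.44 and the intervals between -0.97 and 0.92, so the 3 arrays a group bound a change less tightly for the dimmer members.

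To show what DNA lies ahead of members that moved and of one that did not, the 250 bases before the RefSeq transcription start (mouse build GRCm38.p6) are printed for Timp1, Adamts9 and Adamts3, which rose and hold a cyclic AMP response element half-site, for Mmp11, which fell, and for Mmp13, which was not called. RefSeq windows were matched for 24 of the 38 members (27 windows, as some genes have several starts). Apart from Mmp13, the genes printed are those called with every intact analog that had a window. Adamts4, Adamts5 and Adamts6, also called with every intact analog, had none. Bases are 5′ to 3′ in the direction of the gene, in lower case, and capitals mark matches to TGACG (the half-site), TGANTCA (an AP-1 site) or TGTGGT (a RUNX site), each searched on both strands, with no overlapping matches. Timp1 is at chrX:20869916-20870165 (plus strand), Adamts9 at chr6:92943535-92943784 (minus strand), Adamts3 at chr5:89883335-89883584 (minus strand), Mmp11 at chr10:75932503-75932752 (minus strand) and Mmp13 at chr9:7272264-7272513 (plus strand).
Timp1: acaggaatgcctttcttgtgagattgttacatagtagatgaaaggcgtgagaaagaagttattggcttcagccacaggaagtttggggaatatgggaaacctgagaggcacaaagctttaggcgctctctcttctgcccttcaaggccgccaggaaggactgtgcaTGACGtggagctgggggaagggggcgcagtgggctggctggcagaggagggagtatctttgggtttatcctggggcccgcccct
Adamts9: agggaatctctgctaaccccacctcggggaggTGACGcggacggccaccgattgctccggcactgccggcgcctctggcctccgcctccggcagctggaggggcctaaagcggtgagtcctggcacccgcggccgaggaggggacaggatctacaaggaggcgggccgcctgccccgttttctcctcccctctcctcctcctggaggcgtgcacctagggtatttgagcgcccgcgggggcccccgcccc
Adamts3: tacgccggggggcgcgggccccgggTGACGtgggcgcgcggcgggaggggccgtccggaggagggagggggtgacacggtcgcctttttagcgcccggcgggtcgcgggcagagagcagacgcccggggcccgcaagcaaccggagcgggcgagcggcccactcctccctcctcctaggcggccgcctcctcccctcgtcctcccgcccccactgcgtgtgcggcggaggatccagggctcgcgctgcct
Mmp11: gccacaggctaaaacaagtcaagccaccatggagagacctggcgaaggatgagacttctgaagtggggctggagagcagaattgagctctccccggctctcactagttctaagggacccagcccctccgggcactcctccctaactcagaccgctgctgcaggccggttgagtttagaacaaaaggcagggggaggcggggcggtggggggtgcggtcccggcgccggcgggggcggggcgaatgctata
Mmp13: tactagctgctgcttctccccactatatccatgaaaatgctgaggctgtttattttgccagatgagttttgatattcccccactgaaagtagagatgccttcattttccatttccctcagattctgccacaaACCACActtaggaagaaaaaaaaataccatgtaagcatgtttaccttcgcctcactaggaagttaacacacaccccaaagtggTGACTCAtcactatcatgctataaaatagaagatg

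The half-site matches begin 84 bases before the start of Timp1, 218 before Adamts9 and 225 before Adamts3, and Adamts1 and Adamts12, which were not called, hold one 170 and 205 bases before theirs. In all, 5 of the 27 member windows hold the half-site, beside 17.8% of 32851 promoter windows of the same length. The AP-1 letters are in 5 member windows (Mmp13, Mmp12, Mmp3, Mmp10 and Mmp7, all in the chromosome 9 run, and 35 bases before the start for Mmp13), beside 6.75% of all windows. The RUNX letters are in 4 member windows (Mmp13, Mmp14, Mmp23 and Mmp7), beside 14.0% of all windows. The Mmp11 window holds no match to the 3 motifs. The windows of Mmp28, which rose, and of Timp3, which fell, with an intact analog hold no match either. A match describes the letters and not a bound site.

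Compounds were then compared with each other at the same dose and time in all 10 pairs of the 5 analogs at 100 nM, with p-values adjusted over all genes and all 10 pairs together. hPTH(1-31) lacks the last residues of hPTH(1-34), PTH(1-36) extends beyond its end, and hPTH(7-34) lacks its first residues. bPTH(3-34) lacks the first residues and carries the bovine sequence. Across the 10 pairs 51 of 380 member tests were called, in 11 members, beside 0.176% to 8.66% of all genes in a single pair. The pairs share arrays, so these tests are not independent of each other.

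No member was called between intact analogs, in 114 tests over 3 pairs, where 0.176% (hPTH(1-31) against hPTH(1-34)), 0.401% (PTH(1-36) against hPTH(1-34)) and 0.298% (PTH(1-36) against hPTH(1-31)) of all genes were called. At an unadjusted p under 0.05, limma gave 2, 2 and 6 members in these pairs, beside 4.48%, 6.42% and 5.67% of all genes. Adamts4 came closest, lower with PTH(1-36) than with hPTH(1-31) by 0.42 ± 0.12 (95% interval of the difference -0.67 to -0.17, adjusted p = 0.0524), and it passed the threshold under 4 of the 14 alternatives. Adamts5 was higher with PTH(1-36) than with hPTH(1-31) by 0.23 (95% interval 0.07 to 0.39, limma, adjusted p = 0.117), and passed under 2 alternatives. Over the 12 changed members the differences between intact analogs lay between -0.42 and 0.27, with 95% intervals from -0.67 to 0.54.

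Every pair of a truncated with an intact analog gave calls. bPTH(3-34) was higher in 4 and lower in 5 members than hPTH(1-34), beside 7.63% of all genes called (4.37% higher, 3.26% lower). It was higher in 3 and lower in 5 than hPTH(1-31), beside 7.61% of all genes (4.03% higher, 3.58% lower), and higher in 2 and lower in 5 than PTH(1-36), beside 6.41% (3.37% higher, 3.04% lower). hPTH(7-34) was higher in 4 and lower in 5 members than hPTH(1-34), beside 8.66% of all genes called (5.26% higher, 3.39% lower). It was higher in 5 and lower in 5 than hPTH(1-31), beside 8.41% (4.91% higher, 3.50% lower), and higher in 4 and lower in 4 than PTH(1-36), beside 6.98% (4.01% higher, 2.97% lower). Adamts3, Adamts4, Adamts5, Adamts9 and Mmp11 were called in all 6 of these pairs, Mmp28 and Adamts6 in 5, Adamts16 in 4, Timp3 in 3, and Mmp12 and Timp1 in 2. The second, dimmer Mmp11 cluster differed by 0.04 to 0.39 in these pairs and was not called (limma, adjusted p from 0.430 to 0.971). The Mmp11 call for bPTH(3-34) against hPTH(1-34) was lost in 4 of the alternatives. The Timp3 call for hPTH(7-34) against hPTH(1-31) was lost in 7 of the 14 alternatives. Against hPTH(1-34), those of Timp3 were lost in 5 with bPTH(3-34) and in 1 with hPTH(7-34). The Adamts16 call for bPTH(3-34) against hPTH(1-31) was lost in 6, and its other pair calls in 1 to 3.

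Adamts4 was lower with bPTH(3-34) than with hPTH(1-34) by 1.82 ± 0.12 (limma, adjusted p = 1.04e-08), and lower with hPTH(7-34) than with hPTH(1-34) by 1.71 ± 0.12 (adjusted p = 2.45e-08). Adamts5 was higher by 1.17 ± 0.08 with bPTH(3-34) and by 1.10 ± 0.08 with hPTH(7-34) than with hPTH(1-34) (limma, adjusted p = 9.44e-09 and 2.17e-08). Adamts6 was higher with hPTH(7-34) than with hPTH(1-34) by 0.99 ± 0.15, and with bPTH(3-34) by 0.73 ± 0.15. Timp1 was lower with bPTH(3-34) and hPTH(7-34) than with hPTH(1-34) by 0.32 ± 0.08 and 0.30 ± 0.08, but both calls were lost in 7 or more alternatives.

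hPTH(7-34) and bPTH(3-34) gave 0 members called against each other, beside 0.406% of all genes, and 3 members at an unadjusted p under 0.05, beside 5.07% of all genes. Over the 12 changed members their differences lay between -0.28 (Adamts3) and 0.27 (Adamts6), with 95% intervals from -0.55 to 0.58.

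**Figure D4:**
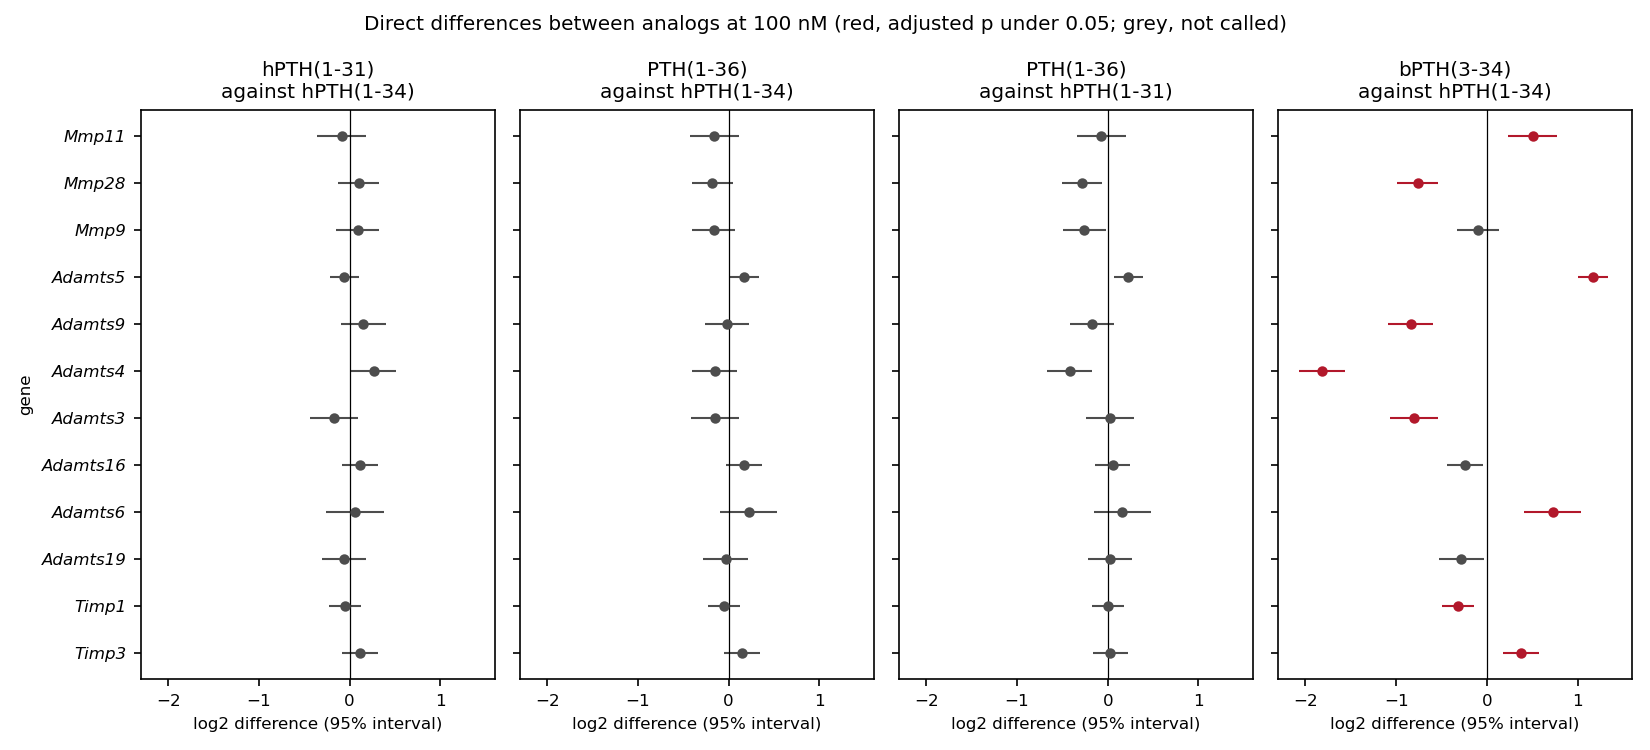
Log2 difference between analogs at 100 nM (horizontal axis, point and 95% interval) for the 12 changed genes, the first named analog minus the second, in the 3 pairs of intact analogs and in bPTH(3-34) against hPTH(1-34), red where the adjusted p is under 0.05. All points of the intact pairs are grey, and in the last panel Adamts4 lies at -1.82 and Adamts5 at 1.17.

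Other genes of the pathway came from lists taken beside the members. None of 6 further MMP and ADAMTS genes (Mmp1a, Mmp1b, Mmp20, Mmp21, Mmp27 and Adamts13) was called. Of 21 other metalloproteases, Ece1, which matures endothelin, rose by 0.89, 0.95 and 0.79, and Tll1, a procollagen C-proteinase, by 0.53, 0.49 and 0.45 with the 3 intact analogs. Adam33 fell by 0.48 with PTH(1-36).

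Among 21 measured activators, clearance receptors and ADAMTS-like proteins, 2 rose and 3 fell with hPTH(1-34), and 2 rose and 1 fell with each of the other intact analogs. Plaur, the urokinase receptor that gathers plasminogen activation at the cell surface, rose by 1.67, 1.85 and 1.65 with hPTH(1-34), hPTH(1-31) and PTH(1-36). Reck, a membrane-anchored MMP inhibitor, fell by 0.53, 0.56 and 0.42, and Sdc4, a syndecan, rose by 0.73 with each.

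Of 19 measured matrix substrates, Vcan, versican itself, rose by 0.81, 0.73 and 0.66 with hPTH(1-34), hPTH(1-31) and PTH(1-36), and Lama4 fell by 1.03, 1.05 and 0.95 and Thbs1 by 0.82, 0.66 and 0.66. The other 16, Acan among them, were not called by limma. None of these 4 lists held a gene called with bPTH(3-34), hPTH(7-34) or bPTH(7-34). Beside their counts, 11.7% of all genes were called with at least 1 intact analog.

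Among the osteoblast markers 9 of 13 were measured, 7 of them above the median gene (4.42) with vehicle. Col1a1 read 13.2 and Dmp1, an osteocyte marker, read 3.28. Pth1r, the receptor, fell by 1.10, 1.10 and 1.02 and Sp7 by 0.56, 0.64 and 0.71 with hPTH(1-34), hPTH(1-31) and PTH(1-36), and Alpl rose by 0.56 and 0.57 with hPTH(1-34) and hPTH(1-31). Macrophage and osteoclast markers were also present, with 13 of 16 above the median gene with vehicle, Lyz2 at 12.2 the highest and Calcr at 2.60 the lowest. Their mean log2 signal per array was 7.66 to 7.76 with hPTH(1-34), 7.67 to 7.73 with hPTH(1-31), 7.52 to 7.76 with PTH(1-36), 7.65 to 7.74 with bPTH(3-34), 7.76 to 7.88 with hPTH(7-34), 7.66 to 7.76 with bPTH(7-34) and 7.64 to 7.78 with vehicle. Of these markers 1, Fcgr1, was called, higher by 0.49 with hPTH(1-34).

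Innate immune genes rose in the same cultures, but their list was chosen with earlier results of these data known. The counts are therefore partly fixed in advance. Of all genes, 3.90%, 4.38% and 3.68% were called higher with hPTH(1-34), hPTH(1-31) and PTH(1-36), and 0.0721% were called with hPTH(7-34). Of 15 innate immune genes measured, 10, 9 and 7 rose with the intact analogs in that order, and 3 (Acod1, Ccl2 and Tnf) rose with hPTH(7-34). Their mean signal per array was 6.02 to 6.07, 5.98 to 6.03 and 5.84 to 5.93 with the intact analogs, 5.63 to 5.79 with hPTH(7-34), 5.14 to 5.41 with bPTH(3-34), 5.17 to 5.36 with bPTH(7-34) and 5.09 to 5.31 with vehicle. Of the other cell type markers, Tek (1 of 8 endothelial), Sox6 (1 of 8 chondrocyte) and Pparg (1 of 7 adipocyte) fell with each intact analog, and endothelial Kdr rose with hPTH(1-31) and PTH(1-36). The smooth muscle gene Cnn1 was the only 1 of 7 muscle markers called, higher by 2.10, 2.08 and 1.88 with the intact analogs. Acta2 and Myh11 went the other way, by -0.25, -0.20 and -0.20 and by -0.11, -0.39 and -0.15. Myod1, Myog, Des and Actc1 each had differences of both signs with these analogs. The part of these genes or cells in the protease results was not tested.

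Across the whole table array medians ran from 3.49 to 3.61, and arrays of a group correlated across genes at 0.990 to 0.994. No array was left out, and the labels state independent cultures for each replicate.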

How the data were processed

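Total RNA (100 ng) of 21 osteoblast cultures, 3 in each of 7 groups, was run on the Mouse Gene 2.0 ST array of Affymetrix. The deposited table holds log2 signals, 1 per transcript cluster and array, which the authors made with RMA in Affymetrix Expression Console per the submitters' processing notes. That they are log2 was inferred from RMA and from their range of 0.25 to 13.6; versions and settings are not given in the sources used here. An array has no read depth, and precision is set by the number of arrays.

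Of 41345 clusters, 23521 carried 1 gene symbol in the platform annotation, 1814 several and 16010 were unnamed here. Clusters with 1 symbol were used, and of several for 1 gene (1082 genes) the one with the highest mean. Through gene identifiers 23328 were matched to RefSeq and 0 symbols changed. limma 3.58.1 in R 4.3.3 fitted 7 groups by lmFit and eBayes, two-sided, with Benjamini-Hochberg adjustment over all genes per contrast with vehicle, and over all genes and 10 pairs between analogs. The script was tested on simulated data. Members called in any contrast, or among the 8 highest by mean, are given by array and the rest by role, and of each other list at most 6 genes are named. The members and lists were chosen with earlier results of these data known. The alternatives were a replicate block, fits of 2 groups, median centring, quantile normalization, omission of dim genes, a mean trend and all clusters. A further one changed the adjustment, to all contrasts with vehicle together and to each pair of analogs alone. Each array was also left out in turn.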

Additional observations from a re-analysis of the deposited data

How the results depend on the processing

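Counts of called members were recomputed under 8 settings and without each of the 21 arrays. When each pair of groups was fitted alone, which uses fewer samples to estimate the spread, 5 members were called with hPTH(1-34), 5 with hPTH(1-31) and 5 with PTH(1-36) against vehicle, beside 10, 10 and 8, and 30 were called between analogs, beside 51. Over all genes these fits called 936, 928 and 606 with hPTH(1-34), hPTH(1-31) and PTH(1-36), beside 1917, 1930 and 1603. Leaving out 1 array gave 8 to 10 with hPTH(1-34), 8 to 10 with hPTH(1-31), 5 to 8 with PTH(1-36), 0 to 0 with each of bPTH(3-34), hPTH(7-34) and bPTH(7-34), and 43 to 52 between analogs. Every other count was within 1.5 times of the value reported. With the replicate number as a block the counts were 10, 11, 9, 0, 0 and 0 against vehicle and 58 between analogs, and the calls gained against vehicle were Timp3 with hPTH(1-31) and with PTH(1-36). Same-numbered arrays had a median correlation of 0.03 of their deviations from the group means, against -0.01 for arrays of other numbers. Of the 63 same-number pairs 1 was over 0.1, but 14 of 21 arrays correlated best with their own number. These values do not settle whether the numbers pair the cultures. The main fit held no block, and the statements on overlap of arrays do not allow for such a pairing. No called difference changed sign in any alternative. Of the 28 calls of a member against vehicle, 28 were kept with the block and 28 with median centring. Quantile normalization kept 27, all clusters 25, and omission of every single array in turn 20. Fits of 2 groups kept 15, those of Adamts3, Adamts4, Adamts5, Adamts9 and Mmp11 with each intact analog. Of the 51 calls between analogs, 38 were kept under every such omission.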
